A study of Mus musculus with 18 samples.

Results

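Gene expression was compared between genotypes 2 h after antigen in mouse bone marrow-derived basophils. The comparison used 6 of the 18 libraries of the series, 3 from wild-type (WT) cells and 3 labelled TTP-KO, all treated with TNP-coupled ovalbumin (TNP-OVA, 10 ng/mL) for 2 h. The cells of both groups had grown out of bone marrow over 7 days under 0.3 ng/mL interleukin-3, had been loaded on day 6 with anti-TNP IgE (1 µg/mL), and were enriched for CD49b+ cells on magnetic beads before treatment. All genes that passed a filter on low counts were compared, 14076 of 56413 in the table. Where a result is set against other conditions, these were the control groups (WT and TTP-KO, ovalbumin without TNP, 10 ng/mL for 2 h) and the later groups (WT and TTP-KO, TNP-OVA for 4 h), again with 3 libraries each. The labels give neither the age of the mice nor the way the gene was disrupted. Nor do they tie the 3 libraries of a group to separate mice or cultures, and p-values here reflect spread between libraries that may be only technical.

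Tristetraprolin (TTP), the product of Zfp36, is a zinc-finger protein that binds AU-rich elements in the 3′ untranslated region (3′ UTR) of short-lived messenger RNAs and recruits the CCR4-NOT deadenylase, which shortens the poly(A) tail and leads to decay. Many of its known targets encode cytokines, chemokines and other products of activated immune cells, and its own mRNA is among them. Basophils, a scarce type of granulocyte, display IgE on their high-affinity receptor. Antigen that links this IgE makes them release stored mediators and transcribe cytokine genes such as Il4 and Il13 within hours.

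The 6 libraries held between 6844315 and 8522564 estimated counts, of which mitochondrially encoded genes took between 1.72% and 2.00%. The first principal component of these libraries carried 28.4% of the variance and separated WT from TTP-KO. Of the 13 basophil markers listed, all of which were tested, Mcpt8 (the basophil protease mMCP-8) stood at a mean of 6958 counts per 1e6 (CPM) in WT and 6928 CPM in TTP-KO, and Cd200r3 at 1000 and 951 CPM. The markers summed to between 34112 and 35172 CPM in WT and between 35064 and 35487 CPM in TTP-KO, so both groups expressed the labelled cell type's genes at similar summed levels. Values below are CPM for levels and log2 differences, TTP-KO minus WT with standard errors, for changes. At an adjusted p under 0.05, 1 of the 13 basophil markers was higher (Prss34) and 1 lower (Cyp11a1, -0.22, adjusted p = 4.78e-04). Differences of the 13 ranged from -0.66 to 0.20, so the similar sum does not hold for each marker.

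Zfp36 RNA was higher, not lower, where the label reads TTP-KO. At 2 h it stood at 446, 460 and 439 CPM in the WT libraries and at 568, 553 and 572 CPM in those labelled TTP-KO. All TTP-KO values lay above all WT values, a log2 difference of 0.33 ± 0.05 (adjusted p = 3.16e-04). The labels do not describe the altered sequence, so this RNA is no check of genotype, and directions given here depend on the labels.

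After 2 h of antigen, 393 of the 14076 genes tested (2.79%) differed between genotypes at an adjusted p under 0.05. Of these, 128 (0.909% of genes tested) were higher and 265 (1.88%) lower in libraries labelled TTP-KO. Differences were small: the median size among the 393 genes was 0.33 on the log2 scale, and 28 differed at least 2-fold, 10 higher and 18 lower. In 390 of the 393 the 3 values of one group lay entirely above those of the other. Such separation was also seen in 2610 of all genes tested (18.5%), with TTP-KO above in 1162 and below in 1448, so it counts for little on its own. Genes named for the largest changes had to have groups apart, so separation in them was fixed by that choice. Across all genes the median log2 difference was 0.004, and 2095 of the 14076 had an unadjusted p under 0.05. Counts of list members at that unadjusted threshold are to be read beside this share. The counts depended on single libraries: without WT replicate 3 they fell to 62 higher and 170 lower, and 154 genes (42 higher, 112 lower) passed without each of the 6 libraries in turn.

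**Figure D1:**
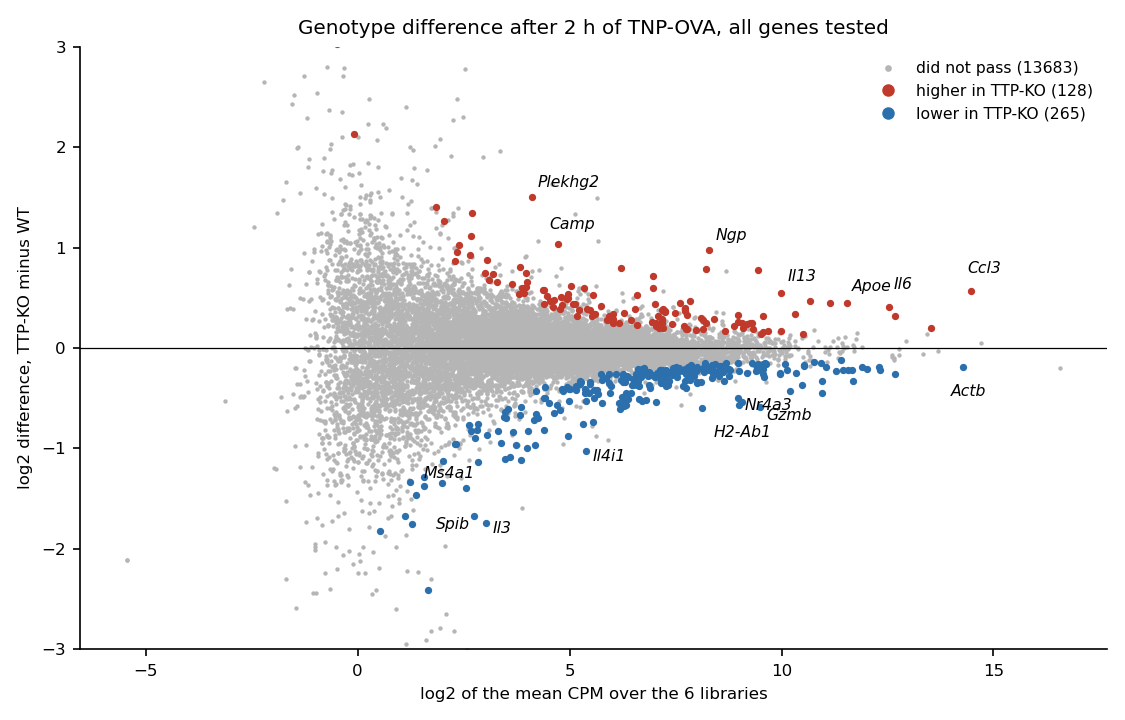
Each point is a gene tested, with the log2 of its mean CPM over the 6 libraries on the horizontal axis and its log2 difference after 2 h of TNP-OVA, TTP-KO minus WT, on the vertical axis. Red points passed the test as higher (128), blue points as lower (265) and grey points did not pass (13683). Of the genes, 69 lie outside the axis range of 3 in either direction or have no counts in these libraries, 2 of them past the threshold. Il13, Il6 and Ccl3 stand out among abundant genes with higher levels, and Il3 and Spib among genes with lower levels.

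Some reported TTP targets were higher in TTP-KO and others lower. Of 54 reported targets listed, 50 were tested, 8 were higher (Il13, Il6, Il1a, Ccl3, Cxcl2, Ptgs2, Plau and Zfp36) and 4 were lower (Il3, Ccl2, Bcl3 and Nr4a1). Of these, Cxcl2, Ccl2 and Bcl3 did not pass without some single libraries. For Bcl3 (-0.38 ± 0.10, adjusted p = 0.0355) those were TTP-KO replicates 1, 2 and 3 (adjusted p = 0.0664, 0.105 and 0.0678) and WT replicates 1 and 2 (0.0645 and 0.135). The median log2 difference of the 50 targets was 0.07, a signed value that does not measure how far single targets moved. Differences ranged from -1.75 to 0.57, and 38 of the 50 did not pass. In 17 targets all TTP-KO values lay above all WT values, and in 7 below. The 8 higher targets include Zfp36, the gene named in the TTP-KO label, whose altered sequence is not described. Whether its higher RNA is that of a target or of the altered gene cannot be told apart. Each of the 8 higher targets carried at least 1 copy of the AU-rich heptamer TATTTAT (written as DNA), the core element that TTP binds, in the annotated 3′ UTR of the mouse gene (GENCODE M21). For each of these 8, the 27-base stretch around a heptamer with the most copies of the core ATTTA is shown, because AU-rich elements of this kind are what TTP binds. Sequences are given 5′ to 3′ on the gene's strand, with capitals for the heptamer or overlapping heptamers:
Il13: ttcttgatctTATTTATtatggttgtg
Ccl3: tatttgtgacTATTTATtctgaaagac
Il6: ttatgattgaTATTTATtatttttatg
Ptgs2: ctactgaccaTATTTATTTATTTATgt
Cxcl2: tttatctatgTATTTATTTATTTATta
Il1a: tttatctatgTATTTATaaatatattt
Plau: ctgctattttTATTTATatctattttt
Zfp36: gtgggcccttTATTTATgacgacttta
These stretches all lie in the 3′ UTR, at chr11:53631742-53631768 (minus strand) for Il13, chr11:83648004-83648030 (minus) for Ccl3, chr5:30019729-30019755 (plus) for Il6 and chr1:150105787-150105813 (plus) for Ptgs2 on GRCm38. On the same build they lie at chr5:90905333-90905359 (plus) for Cxcl2, chr2:129300110-129300136 (minus) for Il1a, chr14:20843318-20843344 (plus) for Plau and chr7:28376967-28376993 (minus) for Zfp36. In Ptgs2 the stretch covers bases 5 to 31 of a 3′ UTR of 2445 bases, which holds 6 copies of the heptamer. Cxcl2 holds 7 copies, Zfp36 and Il1a hold 3 each, and Il13, Ccl3, Il6 and Plau hold 1 each.

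Il13, a type 2 cytokine that acts on epithelium and smooth muscle, stood at 786, 854 and 834 CPM in WT and at 1230, 1201 and 1184 CPM in TTP-KO. The lowest TTP-KO library was well above the highest WT library. Its log2 difference was 0.55 ± 0.05 (adjusted p = 8.58e-08), a 1.46-fold higher level. Ccl3, a chemokine for monocytes and granulocytes and one of the most abundant mRNAs in these cells, measured 18329, 18669 and 18194 CPM in WT against 27429, 27287 and 27338 CPM in TTP-KO. The 3 libraries within each genotype nearly coincided, and the log2 difference was 0.57 ± 0.05 (adjusted p = 1.37e-06). Ccl4, the neighbouring chemokine gene of the same family, held a heptamer too and did not pass (0.05 ± 0.04, adjusted p = 0.598).

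Il6, a pleiotropic inflammatory cytokine, was found at 5173, 5145 and 4974 CPM in WT and at 6886, 6851 and 6621 CPM in TTP-KO (0.41 ± 0.06, adjusted p = 0.00110). Ptgs2, which encodes the inducible cyclooxygenase of prostaglandin synthesis, was at 1863, 1879 and 2045 CPM against 2601, 2692 and 2589 CPM (0.45 ± 0.08, adjusted p = 0.00602). In both genes the groups did not overlap. Il1a averaged 110 CPM in WT and 148 CPM in TTP-KO (0.43 ± 0.07, adjusted p = 4.62e-04), and it was higher in control cells too (0.68, adjusted p = 3.05e-06). Plau, the urokinase plasminogen activator, went from 40.1, 34.1 and 40.8 CPM to 52.4, 56.3 and 57.6 CPM (0.53 ± 0.10, adjusted p = 0.00129). Cxcl2, a neutrophil chemokine, had 1324, 1423 and 1379 CPM in WT and 2141, 1811 and 1764 CPM in TTP-KO, with the highest value in TTP-KO replicate 1. The Cxcl2 difference (0.47 ± 0.09, adjusted p = 0.0127) missed the threshold without WT replicate 1 (adjusted p = 0.0567) or WT replicate 3 (adjusted p = 0.0566). It also missed it in a fit of only the 6 libraries compared (adjusted p = 0.0774).

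**Figure D2:**
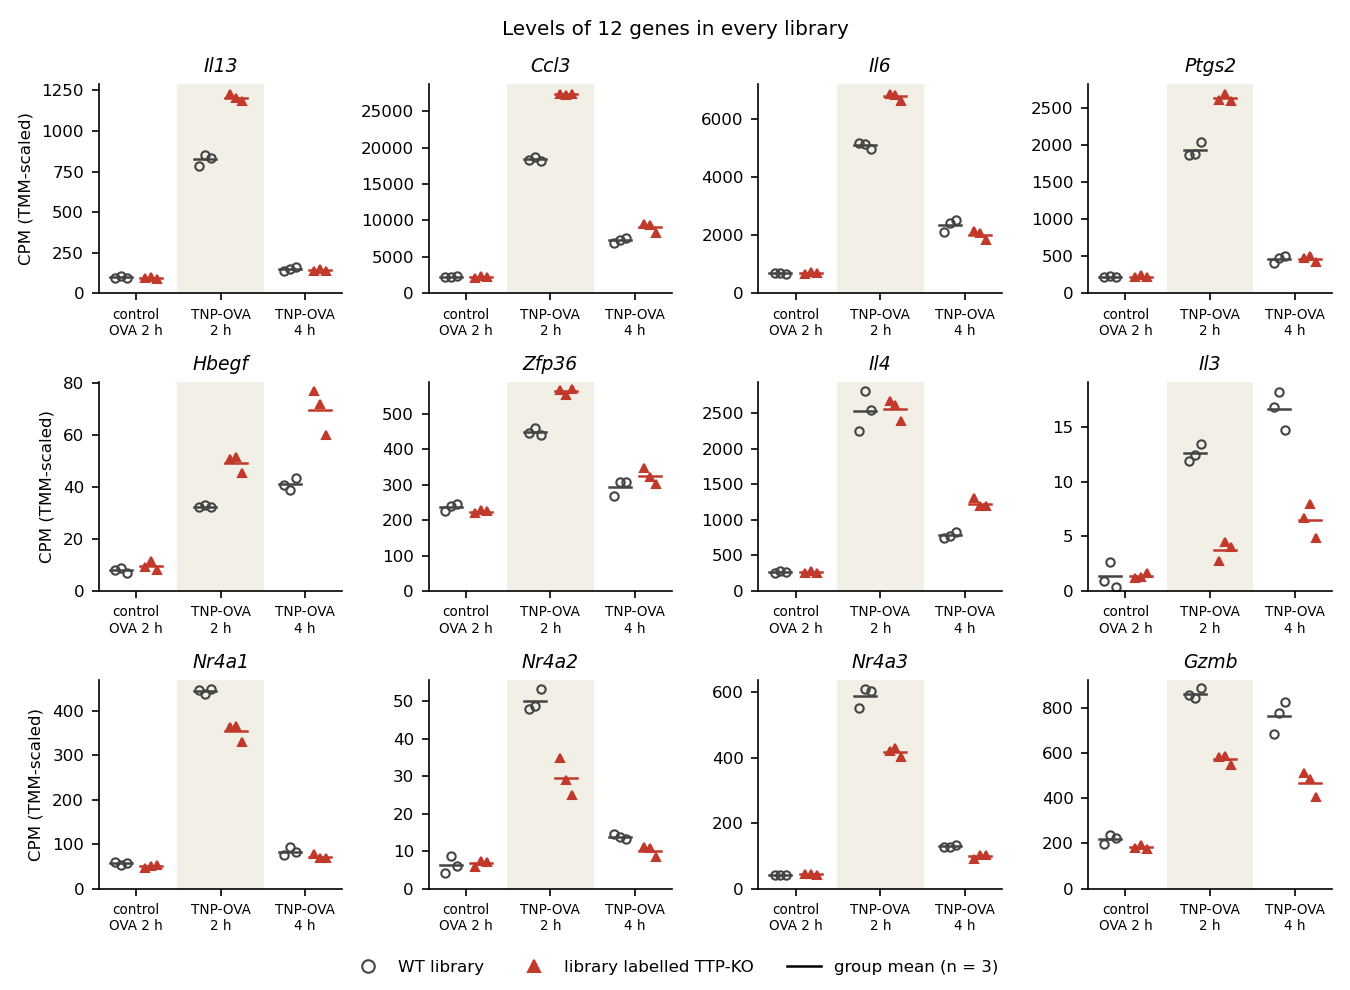
Each panel gives the TMM-scaled CPM of one gene (vertical axis, starting at 0) in all 18 libraries, by condition on the horizontal axis. Open circles are WT libraries, red triangles libraries labelled TTP-KO, lines group means (n = 3), and the shaded column is 2 h of TNP-OVA. In that column Il13, Ccl3, Il6, Ptgs2, Hbegf and Zfp36 lie higher in TTP-KO, Il4 overlaps, and Il3, Gzmb and the 3 Nr4a genes lie lower.

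Among the 50 reported targets tested, 37 held the heptamer and 13 did not. With it, 8 were higher (the targeted gene Zfp36 among them), 0 lower and 29 did not pass, and the median log2 difference was 0.14 (range -0.21 to 0.57). Without it, 0 were higher, 4 were lower and 9 did not pass, with a median of -0.25 (range -1.75 to 0.09). At an unadjusted p under 0.05, 15 of the 50 targets were higher and 8 lower, and DESeq2 gave 8 higher and 3 lower among the 45 for which it returned an adjusted p. The split by heptamer was made after the calls were known and is a description of this list. The 3′ UTRs also differed in length, with a median of 1017 bases with the heptamer and 485 bases without. The annotated 3′ UTR of Il3, the gene at -1.75, has only 101 bases and holds 1 copy of ATTTA. A heptamer beyond that annotated end would be missed, so the place of Il3 among genes without it is uncertain. Across all genes the heptamer was present in 26.1% of 119 higher genes with an annotated 3′ UTR, in 29.8% of 252 lower genes and in 30.1% of 11603 genes tested. Median 3′ UTR lengths in these groups were 663, 1452 and 1162 bases. Limited to 3′ UTRs from 500 to 2000 bases, the heptamer was found in 33.9% of higher, 23.1% of lower and 26.6% of all genes. The longer element TTATTTATT was present in 10.9% of higher, 7.94% of lower and 8.22% of all genes. No test was made of these shares.

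**Figure D3:**
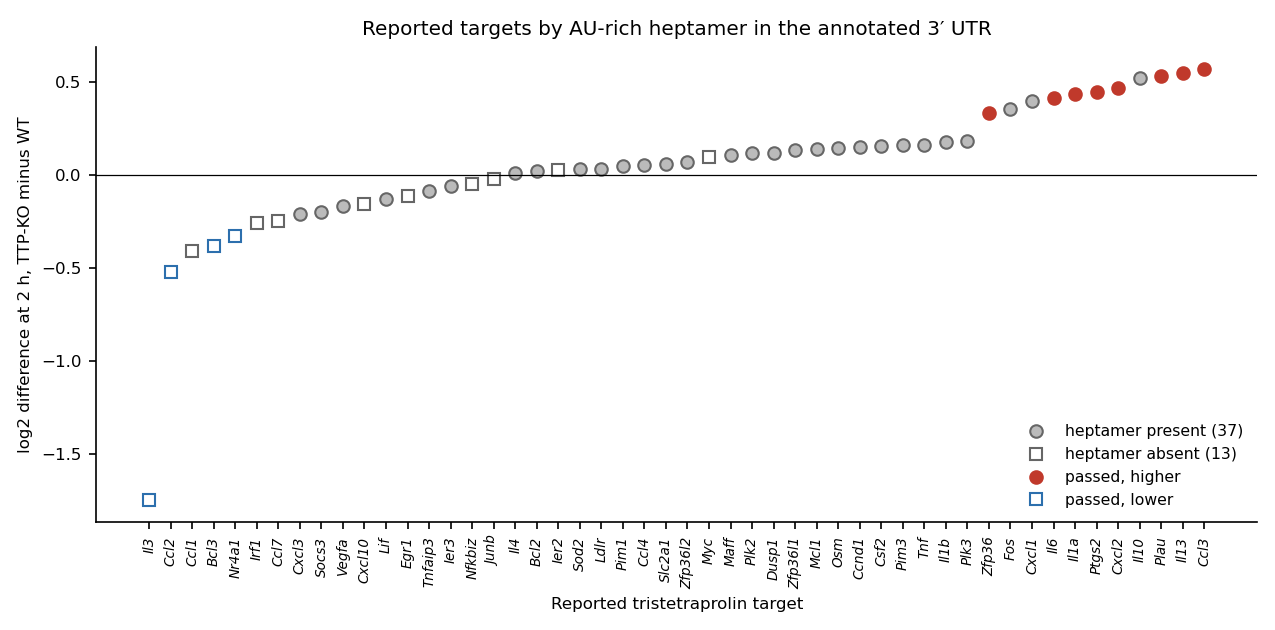
The 50 reported TTP targets tested are ordered along the horizontal axis by their log2 difference at 2 h, TTP-KO minus WT (vertical axis). Filled circles hold the AU-rich heptamer in the annotated 3′ UTR (37) and open squares do not (13). Red marks the 8 targets that passed as higher, all circles and the targeted gene Zfp36 among them, and blue the 4 that passed as lower, all squares.

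Hbegf and Areg, which encode ligands of the epidermal growth factor receptor, were higher too. Hbegf stood at 32.2, 32.9 and 32.1 CPM in WT and at 50.9, 51.3 and 45.3 CPM in TTP-KO, with no overlap (0.60 ± 0.10, adjusted p = 8.75e-04). Areg (amphiregulin) averaged 1130 CPM in WT and 1429 CPM in TTP-KO (0.34 ± 0.07, adjusted p = 0.00728), and missed the threshold without WT replicate 3 (adjusted p = 0.0525). In all, 31 of 40 listed cytokine and growth factor genes were tested, 6 were higher and 1 lower, and the median log2 difference was 0.14. Il4, the cytokine basophils are best known for, did not differ detectably: it stood at 2244, 2803 and 2546 CPM in WT and at 2664, 2605 and 2393 CPM in TTP-KO, overlapping ranges with a difference of 0.01 ± 0.07 (adjusted p = 0.958). Tnf, the founding TTP target, was at a mean of 450 CPM in WT and 503 CPM in TTP-KO (0.16 ± 0.05, adjusted p = 0.121), and Csf2 at 10.0 and 11.2 CPM (0.16 ± 0.21, adjusted p = 0.797).

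Il3 went the other way and had the largest fall among named genes. WT libraries held 11.9, 12.4 and 13.5 CPM and TTP-KO libraries 2.71, 4.48 and 4.05 CPM, a 3.36-fold lower level with no overlap (-1.75 ± 0.29, adjusted p = 7.27e-04). DESeq2 returned no adjusted p for Il3. In control cells Il3 was at a mean of 1.32 CPM in WT and 1.33 CPM in TTP-KO, a level at which a difference is hard to measure. Il3 was not among the 7 genes whose genotype difference changed detectably from control to 2 h. The gene encodes the cytokine that supports basophil growth, which was also supplied in the medium. Csf2rb encodes the beta chain that its receptor shares with those of interleukin-5 and GM-CSF, Csf2rb2 the beta chain specific to interleukin-3, and both fell. Csf2rb2 measured 2181, 2184 and 2264 CPM in WT and 1761, 1760 and 1750 CPM in TTP-KO (-0.33 ± 0.05, adjusted p = 0.00146).

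Of 21 chemokine genes tested, 2 were higher (Ccl3, Cxcl2) and 3 lower (Ccl2, Ccl9, Ccl22), with a median of -0.20. Ccl9, an abundant CC chemokine, fell from 4528, 4299 and 4479 CPM to 3751, 3874 and 3872 CPM (-0.21 ± 0.03, adjusted p = 2.39e-04). Ccl2, a monocyte chemoattractant, had 29.7, 37.2 and 44.2 CPM in WT and 25.6, 26.6 and 25.4 CPM in TTP-KO (-0.52 ± 0.12, adjusted p = 0.00961). WT varied more than TTP-KO in Ccl2, and without WT replicate 3 the adjusted p was 0.107. Ccl22, a chemokine for type 2 helper and regulatory T cells, was scarce, at 4.78, 4.98 and 6.87 CPM in WT and 1.99, 3.12 and 2.49 CPM in TTP-KO (-1.13 ± 0.28, adjusted p = 0.0239), with no overlap. Its adjusted p was 0.112 and 0.0736 without TTP-KO replicates 1 and 3, and 0.140 without WT replicate 3, so that 2 of the 5 chemokine calls remained without WT replicate 3.

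The 3 NR4A orphan nuclear receptor genes, early transcription factors of activated cells, were lower. Nr4a3 stood at 553, 609 and 604 CPM in WT and at 420, 429 and 402 CPM in TTP-KO (-0.50 ± 0.05, adjusted p = 2.31e-07). Nr4a1 was at 447, 437 and 449 CPM against 364, 366 and 330 CPM (-0.33 ± 0.06, adjusted p = 0.00322). Nr4a2, the least abundant of the family, was at 47.8, 48.7 and 53.1 CPM against 34.9, 28.9 and 24.9 CPM (-0.75 ± 0.14, adjusted p = 0.00122). For all 3 genes every TTP-KO library lay below every WT library.

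Of 36 immediate early genes tested, 9 were lower and 0 higher, with a median of -0.09. DESeq2 called 10 lower and 0 higher, and at an unadjusted p under 0.05 13 were lower and 1 higher. Nr4a1, Nr4a2, Nr4a3 and Ier5 passed without each single library, and the other 5 did not. Without TTP-KO replicate 1, 5 of the 9 still passed. Ier5 averaged 267 CPM in WT and 221 CPM in TTP-KO (-0.27 ± 0.05, adjusted p = 0.00161). The AP-1 and EGR genes did not pass apart from Jund: Fos differed by 0.35 ± 0.18 (adjusted p = 0.396), Egr1 by -0.11 ± 0.08 (adjusted p = 0.574) and Egr3 by -0.19 ± 0.07 (adjusted p = 0.164). Jund (-0.20 ± 0.05, adjusted p = 0.0150) was no longer past the threshold without TTP-KO replicate 2 (adjusted p = 0.0606).

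Of 32 NF-kB targets and feedback genes tested, 7 were lower and 0 higher, with a median of -0.15. By DESeq2, 8 were lower and 0 higher, and at an unadjusted p under 0.05 16 were lower and 0 higher. Cd83, a surface marker of activated antigen-presenting cells, fell from 89.9, 93.6 and 82.4 CPM to 55.0, 59.2 and 60.4 CPM (-0.61 ± 0.08, adjusted p = 2.12e-05). Cd40, the costimulatory receptor, fell from 63.5, 61.0 and 51.5 CPM to 39.9, 42.1 and 46.4 CPM (-0.45 ± 0.09, adjusted p = 0.00358). These were the 2 members that passed without each single library. Of the 7, 2 still passed without WT replicate 2 and 3 without TTP-KO replicate 1 or TTP-KO replicate 2. The inhibitors Nfkbia and Tnfaip3 were not among those that passed.

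Feedback regulators of MAP kinase signalling gave 4 lower (Dusp5, Dusp6, Dusp10, Mapkapk2) and 0 higher of 21. None of the 4 passed without each single library, with adjusted p reaching 0.162 for Dusp5 (without WT replicate 3), 0.191 for Dusp6 and 0.164 for Mapkapk2 (both without TTP-KO replicate 1). DESeq2 called 6 lower and 0 higher, and at an unadjusted p under 0.05 7 were lower and 2 higher. Dusp10, a phosphatase of JNK and p38, had the largest of these differences, from 31.8, 34.7 and 32.1 CPM to 18.7, 21.5 and 24.3 CPM (-0.62 ± 0.14, adjusted p = 0.0116). Its adjusted p was 0.0711 without TTP-KO replicate 1 and 0.0513 without WT replicate 2.

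Of 47 surface and costimulatory receptor genes tested, 11 were lower and 0 higher, with a median of -0.07. Of the 11, 6 passed without each single library, and 7 without WT replicate 3, where Adora3 (adjusted p = 0.0553), Cd69 (0.118), Cxcr4 (0.142) and Il7r (0.0599) were lost. DESeq2 also called 11 lower and 0 higher, and at an unadjusted p under 0.05 16 were lower and 2 higher. Besides Cd40 and the beta chains, Ccr2, the receptor for Ccl2, fell from 112, 121 and 117 CPM to 83.5, 87.2 and 75.5 CPM (-0.51 ± 0.07, adjusted p = 3.94e-05). C5ar1, the receptor for the complement fragment C5a, fell from 267, 257 and 244 CPM to 198, 208 and 209 CPM (-0.32 ± 0.06, adjusted p = 0.00136). Lilrb4a, an inhibitory receptor with a near-identical neighbour, was at 5400, 5257 and 5482 CPM against 4621, 4827 and 4743 CPM (-0.19 ± 0.04, adjusted p = 0.00263). Of 40 genes of the IgE receptor and its signalling proteins tested, 1 was lower (Fyn) and 0 higher, also by DESeq2, a share near that over all genes (2.79%). Fcer1a, the IgE-binding chain, averaged 671 and 729 CPM in WT and TTP-KO (0.12 ± 0.04, adjusted p = 0.148). Fyn, a Src family kinase (-0.22 ± 0.06, adjusted p = 0.0382), passed without TTP-KO replicate 3 but not without TTP-KO replicates 1 or 2 (adjusted p = 0.0626 and 0.134) or WT replicates 1, 2 or 3 (0.0518, 0.107 and 0.0544). At an unadjusted p under 0.05, 10 of these 40 were lower and 1 higher.

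Granule protease genes were called in both directions. Gzmb, encoding granzyme B, fell from 855, 842 and 886 CPM to 582, 585 and 545 CPM (-0.59 ± 0.09, adjusted p = 0.00215). Cma1, a mast cell chymase, fell from 47.8, 40.6 and 32.1 CPM to 19.5, 21.3 and 24.7 CPM (-0.87 ± 0.13, adjusted p = 1.57e-04), and Tpsb2, a mast cell tryptase, from 132, 132 and 134 CPM to 87.3, 96.0 and 93.5 CPM (-0.52 ± 0.06, adjusted p = 1.63e-06). In contrast, the basophil tryptase gene Prss34 rose from 11212, 10660 and 11177 CPM to 12362, 12839 and 12785 CPM (0.20 ± 0.03, adjusted p = 9.00e-05). Ctsg, cathepsin G, rose from 546, 558 and 586 CPM to 658, 670 and 677 CPM (0.25 ± 0.04, adjusted p = 3.19e-04). Over the whole granule list 3 of 31 were higher and 3 lower, and Mcpt8 and Cpa3 did not pass. Cma1 and Tpsb2 also stand in the mast cell marker list, where 2 of 7 tested were lower and 0 higher (DESeq2 called the same numbers) and Kit and Mitf did not pass. The mast cell markers summed to between 247 and 272 CPM in WT and between 186 and 208 CPM in TTP-KO. Whether fewer mast cells or less RNA per cell lay behind such values cannot be told apart in bulk RNA, here and for the lineages that follow.

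Several neutrophil granule genes were higher. Of 21 neutrophil and granulocyte precursor markers, all tested, 9 were higher and 0 lower, with a median of 0.37, and DESeq2 gave the same numbers. At an unadjusted p under 0.05, 16 were higher and 1 lower. Ngp, which encodes neutrophilic granule protein, rose from 208, 220 and 206 CPM to 408, 414 and 423 CPM (0.97 ± 0.11, adjusted p = 3.19e-04). Camp, the cathelicidin gene, rose from 15.2, 19.5 and 17.4 CPM to 35.5, 39.5 and 31.9 CPM (1.03 ± 0.13, adjusted p = 1.44e-05). Ltf, lactoferrin, rose from 51.0, 58.5 and 54.2 CPM to 96.3, 101 and 87.1 CPM (0.80 ± 0.09, adjusted p = 7.13e-07). In these 3 genes every TTP-KO library was well above every WT library, but their choice among the largest changes required groups apart.

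S100a8, a calgranulin subunit, was more variable, at 171, 258 and 228 CPM in WT and 466, 364 and 308 CPM in TTP-KO (0.79 ± 0.17, adjusted p = 0.0242). Its adjusted p exceeded 0.05 without any of 4 libraries, WT replicates 1 and 3 (0.0746 and 0.0744) and TTP-KO replicates 1 and 2 (0.0928 and 0.0594). In a fit of only the 6 libraries compared, the adjusted p of S100a8 was 0.308. The list summed to between 2324 and 2664 CPM in WT and between 3482 and 3810 CPM in TTP-KO, and none of its markers was at 0 in the 6 libraries. Cxcr2 and Csf3r, receptors of neutrophils, did not pass (-0.06 ± 0.05, adjusted p = 0.568, and -0.0011 ± 0.10, adjusted p = 0.999). The part of neutrophil-lineage RNA in the other differences, such as that of Cxcl2 or Il1a, was not tested.

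Of 23 monocyte and macrophage markers tested, 7 were higher and 3 lower, and DESeq2 gave the same numbers. Without WT replicate 3, C1qc was lost among the higher (adjusted p = 0.0528) and Fn1 (0.0564) and F13a1 (0.124) among the lower, which left Ccr2. Apoe, a lipid carrier, rose from 2627, 2537 and 2460 CPM to 3448, 3340 and 3619 CPM (0.45 ± 0.04, adjusted p = 6.76e-09). Lyz2, lysozyme, rose from 6152, 5693 and 5623 CPM to 7312, 7270 and 7269 CPM (0.32 ± 0.03, adjusted p = 7.13e-07). The complement gene C1qa rose from 171, 172 and 153 CPM to 218, 217 and 242 CPM (0.45 ± 0.06, adjusted p = 5.08e-05), while Ccr2 fell as given above. Csf1r, Adgre1, Cd68 and Cd14, which mark the lineage broadly, did not pass. The list summed to between 11008 and 11857 CPM in WT and between 13914 and 14321 CPM in TTP-KO, and its part in the higher levels of shared inflammatory genes was not tested.

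Class II antigen presentation genes were lower in TTP-KO. H2-Ab1 fell from 615, 619 and 589 CPM to 408, 413 and 407 CPM (-0.57 ± 0.04, adjusted p = 2.64e-09), and H2-Aa from 662, 640 and 611 CPM to 429, 440 and 451 CPM (-0.54 ± 0.04, adjusted p = 3.32e-09). H2-Eb1 fell from 348, 335 and 320 CPM to 204, 235 and 225 CPM (-0.60 ± 0.05, adjusted p = 4.50e-09). These encode the chains of class II major histocompatibility molecules, and near-identical H2 genes can share reads. Cd74, the invariant chain, averaged 2307 CPM in WT and 1687 CPM in TTP-KO (-0.45 ± 0.04, adjusted p = 4.50e-09). Of 14 dendritic cell and class II genes tested, 6 were lower and 0 higher, with a median of -0.45. DESeq2 called 7 lower and 0 higher, and at an unadjusted p under 0.05 9 were lower and 0 higher. The list summed to between 4036 and 4363 CPM in WT and between 2912 and 3070 CPM in TTP-KO. The genes that mark dendritic cells more narrowly were scarce and did not pass: Zbtb46 was at 2.00 and 1.58 CPM and Clec9a at 3.16 and 1.47 CPM in WT and TTP-KO.

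Some B cell genes, all scarce, were lower. Cd79b, a signalling chain of the B cell receptor, fell from 18, 21.7 and 23.9 CPM to 9.69, 10.7 and 11.7 CPM (-0.99 ± 0.17, adjusted p = 6.44e-04). Ms4a1, which encodes CD20, fell from 8.58, 8.02 and 8.90 CPM to 2.99, 3.39 and 3.27 CPM (-1.40 ± 0.23, adjusted p = 4.62e-04). Spib, a transcription factor of B cells and plasmacytoid dendritic cells, fell from 12.0, 9.68 and 8.90 CPM to 2.71, 3.80 and 2.96 CPM (-1.68 ± 0.23, adjusted p = 4.42e-05). No TTP-KO library reached a WT library in these 3 genes, but their choice among the largest changes required groups apart. Of 14 B cell markers tested, 6 were lower and 0 higher, with a median of -0.98, and at an unadjusted p under 0.05 10 were lower and 0 higher. DESeq2 returned an adjusted p for 4 of them and called 2 lower and 0 higher. Cd79a, Cd79b and Ms4a1 passed without each single library, while Pax5 and Blk did not. Their highest adjusted p was 0.221 for Pax5 (without WT replicate 2) and 0.163 for Blk (without TTP-KO replicate 3). Of the 6 calls, 3 remained without WT replicate 3 and 3 without TTP-KO replicate 3. The list summed to between 162 and 204 CPM in WT and between 108 and 161 CPM in TTP-KO. B cells carry class II molecules too, and the part of these markers in the class II difference was not tested.

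Hba-a2, an alpha-globin gene with a near-identical copy, fell from 22.6, 16.5 and 20.8 CPM to 11, 9.10 and 7.47 CPM (-1.11 ± 0.20, adjusted p = 0.00137). It was the 1 of 7 erythroid markers that passed. Of 11 megakaryocyte and platelet markers 1 was lower, the tubulin gene Tubb1 (-1.11 ± 0.28, adjusted p = 0.0392), which did not pass without any single one of the 6 libraries (adjusted p up to 0.131, without TTP-KO replicate 2). Of 8 eosinophil markers 1 was lower, the ribonuclease gene Ear2 (-0.83 ± 0.20, adjusted p = 0.0210), whose adjusted p was 0.0910 and 0.124 without TTP-KO replicates 1 and 3 and 0.0846 and 0.0648 without WT replicates 2 and 3. Ear2 did not stand for its list: 5 of the 8 markers had positive differences, and the median was 0.45. The eosinophil list summed to between 168 and 188 CPM in WT and between 180 and 238 CPM in TTP-KO. By edgeR no T cell marker passed of 3 tested and no progenitor marker of 8, and at an unadjusted p under 0.05 these counts were 0 and 1. DESeq2 returned no adjusted p for the T cell markers, and called 0 of the 5 progenitor markers for which it did.

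**Figure D4:**
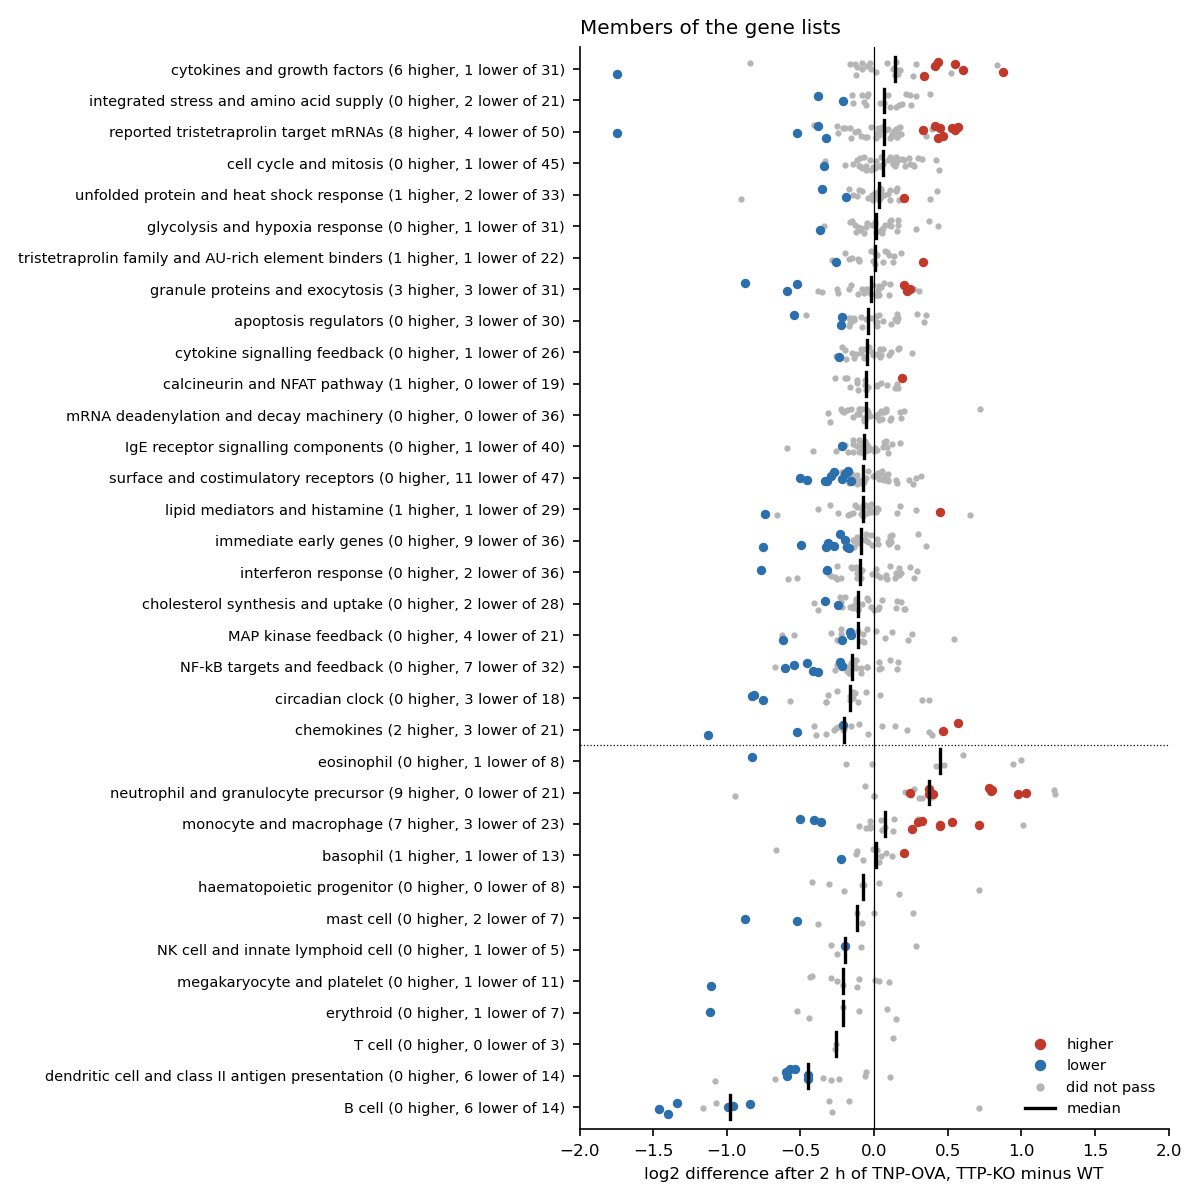
Each point is a tested member of a gene list (rows), placed by its log2 difference after 2 h of TNP-OVA, TTP-KO minus WT (horizontal axis). Red points passed as higher, blue as lower, grey did not pass, black bars are medians, and cell type markers lie below the dotted line. Neutrophil markers lie to the right with 9 of 21 higher, B cell and class II genes to the left, and immediate early genes, NF-kB targets and surface receptors have only blue coloured points.

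Among circadian clock genes, Nr1d1 and Ciart were lower. Nr1d1, which encodes the repressor REV-ERB alpha, fell from 31.5, 27 and 22.5 CPM to 16.2, 14 and 15.6 CPM (-0.82 ± 0.13, adjusted p = 3.19e-04). Ciart, a repressor of the clock's activators, fell from 20.0, 21.8 and 20.1 CPM to 12.0, 12.4 and 10.4 CPM (-0.83 ± 0.17, adjusted p = 0.00410). Of 18 clock genes tested 3 were lower, and 0 higher, with a median of -0.17. The third was Dbp, a clock output transcription factor (-0.75 ± 0.20, adjusted p = 0.0359), whose adjusted p was 0.0875, 0.115 and 0.0570 without TTP-KO replicates 1, 2 and 3 and 0.0682 and 0.142 without WT replicates 1 and 3. DESeq2 called 4 lower and 0 higher, and at an unadjusted p under 0.05 8 were lower and 0 higher. The core activators Clock and Bmal1 did not pass (0.04 ± 0.24, adjusted p = 0.962, and -0.11 ± 0.25, adjusted p = 0.897). The E-box CACGTG, the site of these activators, was found on either strand in the promoter windows (RefSeq, GRCm38.p6) of 5 of 15 clock genes (33.3%) and of 11.5% of 9765 genes tested. Ciart's promoter window held 3 copies, and those of Nr1d1 and Dbp held 0. The windows of these genes had only 300 bases, and E-boxes outside them were not searched for.

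Single metabolic genes were lower. Slc7a11, the cystine importer, fell from 222, 236 and 235 CPM to 177, 182 and 175 CPM (-0.38 ± 0.05, adjusted p = 1.06e-05). Slc2a3, a glucose transporter, fell from 129, 136 and 132 CPM to 95.3, 108 and 105 CPM (-0.37 ± 0.05, adjusted p = 1.41e-04). Srebf2, the transcription factor of cholesterol synthesis, fell from 169, 167 and 175 CPM to 140, 138 and 129 CPM (-0.33 ± 0.07, adjusted p = 0.00323). By list, 1 of 31 glycolysis and hypoxia genes, 2 of 28 cholesterol genes and 2 of 21 amino acid supply genes were lower, and 0 of each were higher. These shares were 3.23%, 7.14% and 9.52%, beside 2.79% over all genes, so the glycolysis share was near the general one. At an unadjusted p under 0.05, 4 glycolysis genes were lower and 0 higher, 7 cholesterol genes lower and 0 higher, and 2 amino acid supply genes lower and 5 higher. The glycolysis share was near that of all genes tested, where 2095 of 14076 had such a p. DESeq2 called 2, 3 and 2 lower and 0 higher in each. In the cholesterol list 10 of 28 genes had all TTP-KO values below all WT values and 0 had them above, and its median was -0.11. Among all 14076 genes tested, 1448 had them below and 1162 above. Cyp51, an enzyme of sterol synthesis, did not pass without WT replicates 2 or 3 (adjusted p = 0.0515 and 0.113) or TTP-KO replicates 1 or 2 (0.113 and 0.0601). Slc7a5, an amino acid transporter, did not without TTP-KO replicate 1 (0.0719) or WT replicate 3 (0.0810). Of 45 cell cycle genes 1 was lower, Ccnd2, which encodes cyclin D2 (from 284, 307 and 324 CPM to 256, 242 and 224 CPM, -0.34 ± 0.06, adjusted p = 0.00218). This cell cycle share (2.22%) was near that over all genes too. Cytoskeletal Actb was lower as well, at 21604, 20675 and 21788 CPM against 18970, 18696 and 18377 CPM (-0.19 ± 0.03, adjusted p = 5.27e-04).

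Further lists held between 1 and 3 calls each, where 2.79% of all genes tested were called. The share in the cytokine feedback list (3.85%) was near that figure. Jak1, a kinase of cytokine receptors, fell from 408, 424 and 435 CPM to 356, 360 and 359 CPM (-0.24 ± 0.04, adjusted p = 6.28e-04), the 1 lower gene of 26 cytokine feedback genes. Bcl2l11, which encodes the pro-apoptotic protein BIM, fell from 331, 336 and 341 CPM to 278, 298 and 292 CPM (-0.22 ± 0.05, adjusted p = 0.00728), and 3 of 30 apoptosis regulators were lower in all. The other 2, Bcl2a1d and Pmaip1, were both lost without WT replicate 2 (adjusted p = 0.0587 and 0.187) and without TTP-KO replicate 1 (0.0808 and 0.187). Both were also lost in a fit of only the 6 libraries compared, where Bcl2a1d had an adjusted p of 0.130. Ero1a, an oxidase of the endoplasmic reticulum, fell from 2209, 2249 and 2342 CPM to 1949, 2017 and 1992 CPM (-0.19 ± 0.04, adjusted p = 0.00291), 1 of 2 lower among 33 unfolded protein response genes with 1 higher. Dnajb9 (lower) and Pdia6 (higher) of that list were both lost without WT replicate 3 (adjusted p = 0.0756 and 0.156) and without TTP-KO replicate 3 (0.0561 and 0.236). For Jak1, Bcl2l11 and Ero1a the groups did not overlap and no single library ended the call. Of 36 interferon response genes 2 were lower, of 29 genes of lipid mediators and histamine 1 was higher (Ptgs2) and 1 lower, of 19 genes of the calcineurin and NFAT pathway 1 was higher, of 22 genes of the TTP family and other AU-rich element binders 1 was higher (Zfp36) and 1 lower, and of 5 natural killer and innate lymphoid markers 1 was lower. Apart from Ptgs2 and Zfp36 none of these passed without each single library.

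For the decay machinery the calls depended on the method. Of 36 genes of deadenylation and decay tested, edgeR called 0, DESeq2 called 1 higher and 1 lower, and 6 had an unadjusted p under 0.05. That last share was near the one over all genes tested (2095 of 14076). Btg1, which links deadenylases to mRNA, was at 771, 778 and 857 CPM in WT and 747, 727 and 705 CPM in TTP-KO (-0.14 ± 0.04, adjusted p = 0.0609). Btg1 passed with DESeq2 (adjusted p = 0.0153), with RLE scaling (0.0364), without WT replicates 1 or 2 (0.0232 and 0.0459) and without TTP-KO replicate 1 (0.0499). Btg3, a relative of Btg1 (0.72 ± 0.23, adjusted p = 0.123), passed with DESeq2 (0.0246), with no filter on low counts (0.00933) and without WT replicate 1 (0.0241). The paralogs Zfp36l1 and Zfp36l2, which bind the same elements, differed by 0.14 and 0.07 on the log2 scale and did not pass.

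Plekhg2, a gene next to Zfp36 on chromosome 7, had the largest rise among named genes. WT libraries held 9.40, 7.88 and 9.57 CPM and TTP-KO libraries 23.9, 25.8 and 26.6 CPM, a 2.84-fold higher level (1.51 ± 0.17, adjusted p = 1.10e-06). Among the 20 tested neighbours, 10 on either side of Zfp36, Plekhg2 was the 1 that passed. It was higher in control cells (0.74 ± 0.17, adjusted p = 0.0165) and at 4 h (1.61 ± 0.16, adjusted p = 9.18e-08) too. Ndufb4, a subunit of respiratory complex I, followed with 5.44, 2.07 and 3.64 CPM against 10.1, 10.3 and 7.47 CPM (1.34 ± 0.26, adjusted p = 0.00261). Il4i1, a secreted amino acid oxidase, was among the clearest falls, from 61.7, 51.0 and 56.5 CPM to 25.4, 27.6 and 30.3 CPM (-1.02 ± 0.09, adjusted p = 2.16e-08).

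The genotypes also differed without antigen and at 4 h. In control cells 232 genes (1.65%) passed and at 4 h 735 (5.22%). Of the 393 genes at 2 h and the 232 in control, 105 passed in both, all with the same sign. Of the 393 at 2 h and the 735 at 4 h, 187 passed with the same sign in both and 1 with opposite signs, and 80 passed with the same sign in all 3 conditions. The median log2 difference of neutrophil markers was 0.36 in control and 0.38 at 4 h, that of class II genes -0.44 and -0.41, and that of B cell markers -1.09 and -0.87. Other lineage lists had medians that were less alike: mast cell markers gave -0.12 at 2 h, -0.69 in control and -0.42 at 4 h, and monocyte and macrophage markers 0.07, 0.08 and 0.25. Nr1d1 differed by -0.82 ± 0.12 in control (adjusted p = 2.20e-04) and -0.86 ± 0.12 at 4 h (adjusted p = 1.90e-05).

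A test of the difference itself picked out few genes. The genotype difference at 2 h differed from that in control for 7 genes (0.0497%), 5 of them more positive at 2 h and 2 more negative. In control cells Il13 was at a mean of 96.8 CPM in WT and 94.2 CPM in TTP-KO, and its genotype difference was 0.58 ± 0.08 larger after antigen (adjusted p = 6.80e-04). For Ccl3, at 2212 and 2247 CPM in control, the change was 0.55 ± 0.07 (adjusted p = 0.00139). Nr4a3, at 42.0 and 44.0 CPM in control, changed by -0.56 ± 0.08 (adjusted p = 8.04e-04). Rgs1, a brake on G protein-coupled receptors, was lower in control (-0.33 ± 0.04) and not at 2 h (0.10 ± 0.04, adjusted p = 0.262), a change of 0.43 ± 0.06 (adjusted p = 8.04e-04). These 4 passed without each single library. Zfp36, Tufm and Phf20l1 also passed, but not without most of the single libraries, where their adjusted p reached 0.108, 0.134 and 0.173. The count was 4 without TTP-KO control replicate 2, without TTP-KO 2 h replicate 1 or without TTP-KO 2 h replicate 3. Ptgs2 and Il6, with differences of 0.01 and 0.03 in control, did not pass this test (adjusted p = 0.353 and 0.248).

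Against 4 h, 44 genes (0.313%) had a different genotype difference, 31 of them more positive at 2 h and 13 more negative. Il13 was at 150 CPM in WT and 140 CPM in TTP-KO by 4 h, so its difference at 2 h was 0.65 ± 0.08 larger than at 4 h (adjusted p = 4.88e-05). Il6 also passed (adjusted p = 0.00328): its level at 4 h was 2345 CPM in WT and 2018 CPM in TTP-KO, a difference of -0.22 ± 0.06 that did not itself pass (adjusted p = 0.0527). Il4 showed the reverse order, with no detectable difference at 2 h and 785 CPM in WT against 1225 CPM in TTP-KO at 4 h (0.64 ± 0.07, adjusted p = 4.19e-05), a change between times of -0.63 ± 0.10 (adjusted p = 0.0123). The fall of Il3 did not differ detectably between times (-1.37 ± 0.25 at 4 h, adjusted p of the change 0.827). The count was 29 without TTP-KO 2 h replicate 2, 25 without TTP-KO 2 h replicate 3 and 26 without WT 4 h replicate 3.

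**Figure D5:**
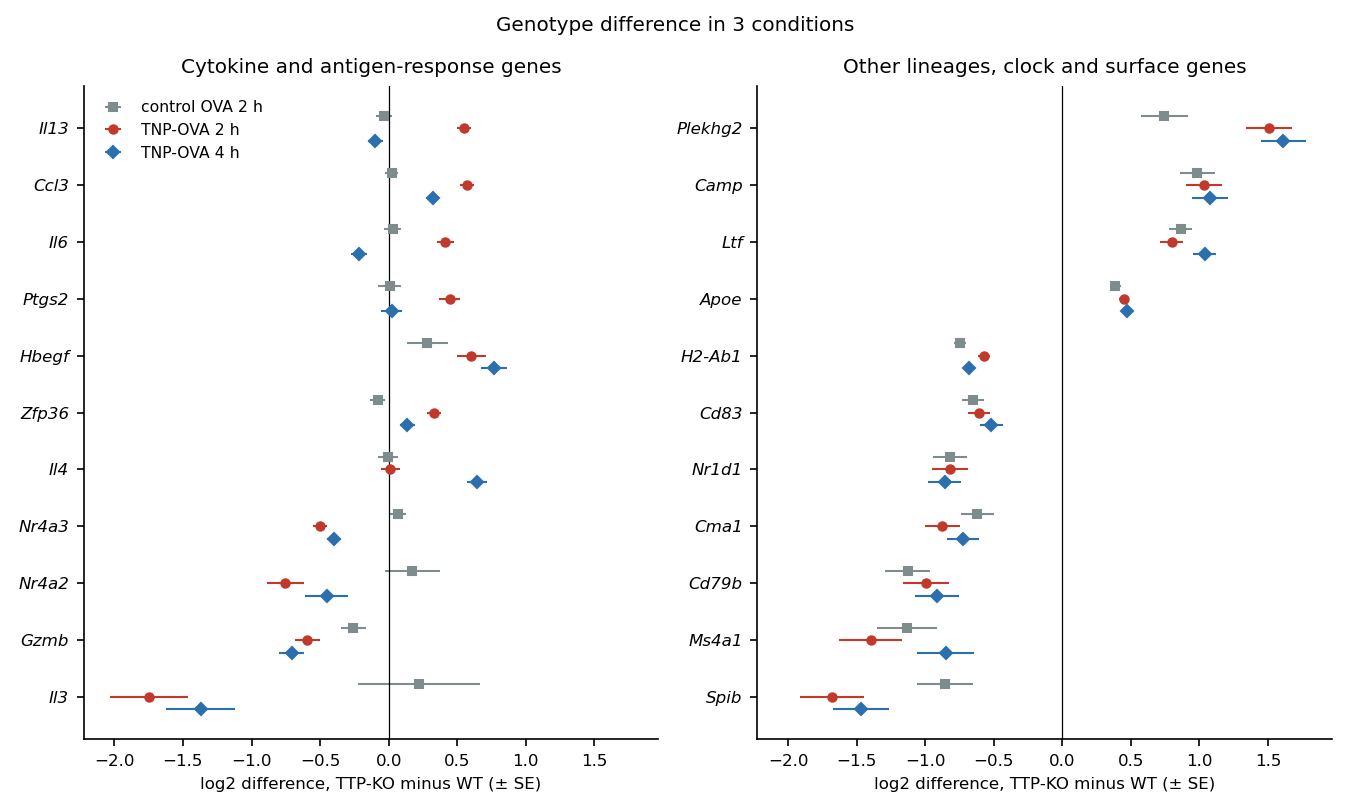
Log2 differences, TTP-KO minus WT, with standard errors (horizontal axis) are drawn for 22 genes in control OVA (grey squares), TNP-OVA 2 h (red circles) and TNP-OVA 4 h (blue diamonds). On the left, Il13, Ccl3, Il6, Ptgs2 and Nr4a3 sit near 0 in control and away from it at 2 h, and Il4 lies near 0 until 4 h. On the right, each gene drawn has a difference of the same sign in all 3 conditions.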

How the data were processed

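RNA from 18 libraries was sequenced by the submitters, and the deposited table holds expected counts per gene (estimated, with decimals and no normalization, as the authors left them). The submitters' processing notes name the build GRCm39 and, in no stated order, RSEM 1.3.1, STAR 2.7.10a and cutadapt 3.5 beside R 4.4.0 and 4.4.1. The annotation and the strand setting are not given in the sources used here, so reads of a gene and an antisense partner cannot be told apart. Table columns named as unstimulated were matched to the control OVA libraries.

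Expected counts were rounded and passed to edgeR 4.0.16 (R 4.3.3): filterByExpr, TMM scaling and a robust quasi-likelihood fit of all 18 libraries in 6 groups, which share one estimate of the spread (12 residual degrees of freedom, biological coefficient of variation 0.0905). Every adjusted p is from this edgeR fit unless a left-out library or another alternative is named. Adjustment was by Benjamini-Hochberg over 14076 genes, with a threshold of 0.05. The fit with no filter on low counts adjusted over 32577 genes, and DESeq2 gave its own adjusted p. CPM are TMM-scaled. Exact permutation of 3 against 3 libraries cannot give a p below 0.1. The fit was checked on simulated counts. Within each TNP-OVA 2 h group no 2 libraries were copies of each other (the chi-square of their counts over its degrees of freedom was 3.04 to 4.66). Other pairs of libraries were not compared in this way. The alternatives were RLE scaling, no filter, DESeq2 1.42.0, a replicate block, only the 6 libraries, and leaving out each library.

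The members and the 34 lists (22 of functions, 12 of markers) were chosen with earlier results of these data known. Named were the 15 largest changes in each direction among genes whose log2 CPM averaged 2 or more and whose groups lay apart, the 5 most abundant genes past the threshold in each direction, up to 6 genes per direction in each interaction, up to 4 members past the threshold in each list or, where none passed, the 2 with the smallest p, and Zfp36. Other list members are named to complete a group's account after their values were seen. Not all genes the rule takes are described, and some list members are not reported here by name. 3′ UTRs are the longest per gene in GENCODE M21 and promoters are from RefSeq, both on GRCm38 and matched by gene. No coordinates of the authors' build were used.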

Additional observations from a re-analysis of the deposited data

Results flagged for a closer look

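The genotype difference after 2 h of antigen (log2, TTP-KO minus WT) was larger or smaller than the one in control cells for 7 genes, by edgeR's test of that difference with Benjamini-Hochberg adjustment. The change from control to 2 h was 0.582 ± 0.0779 for Il13 (adjusted p = 6.80e-04), 0.55 ± 0.0685 for Ccl3 (adjusted p = 0.00139) and 0.428 ± 0.0615 for Rgs1 (adjusted p = 8.04e-04). For Zfp36 it was 0.412 ± 0.0754 (adjusted p = 0.0249) and for Phf20l1, a reader of methylated histones, 0.344 ± 0.0657 (adjusted p = 0.0327). Negative changes were found for Nr4a3, at -0.564 ± 0.0806 (adjusted p = 8.04e-04), and for Tufm, a mitochondrial elongation factor, at -1.15 ± 0.219 (adjusted p = 0.0327). Tufm was at 18.8, 13 and 21 CPM in WT and 9.55, 9.50 and 7.93 CPM in TTP-KO at 2 h. The adjusted p of Zfp36, Tufm and Phf20l1 rose above 0.05 without most single libraries, to at most 0.108, 0.134 and 0.173.

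Between 2 h and 4 h the genotype difference changed for 44 genes, and the strongest in each direction were the following. Values are the difference at 2 h minus that at 4 h. Il13 gave 0.646 (adjusted p = 4.88e-05) and Akr1c13, an aldo-keto reductase with close paralogs, 0.982 (adjusted p = 1.07e-04). The thrombin receptor gene F2r gave 0.478 (adjusted p = 1.07e-04), Socs1, an inhibitor of cytokine signalling, 0.496 (adjusted p = 0.00206), Ier3 0.42 (adjusted p = 0.00328) and the chemokine gene Ccl6 0.378 (adjusted p = 0.00115). Akr1c13, Socs1, Ier3 and Ccl6 did not pass at 2 h and were lower in TTP-KO at 4 h. More negative at 2 h were Mrc1, the macrophage mannose receptor, at -0.824 (adjusted p = 1.06e-04), the fibronectin gene Fn1 at -0.701 (adjusted p = 0.00145) and the endocytic adaptor Dab2 at -0.595 (adjusted p = 0.0111). Il4 gave -0.629 (adjusted p = 0.0123), Ptgr3 -0.548 (adjusted p = 0.0147) and Kctd12 -0.328 (adjusted p = 0.00145). Mrc1 was at 56.5 CPM in WT and 58.6 CPM in TTP-KO at 2 h, and at 69.1 and 126.8 CPM at 4 h. Ptgr3 missed the threshold without any of 4 single libraries, with an adjusted p of at most 0.0586.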

How the results depend on the processing

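The count of genes higher at 2 h (128) was 193 with no filter on low counts, 85 with only the 6 libraries compared and 62 to 116 on leaving out single libraries. Genes lower (265) numbered 170 to 260 on leaving out single libraries. Counts of 113 and 341 under RLE scaling and of 110 and 328 with DESeq2 stayed within 1.5 times of these. The 7 genes whose difference changed from control were 55 with no filter, 22 with DESeq2 and 4 to 8 on leaving out libraries. The 44 that changed against 4 h were 134, 103 and 25 to 54. Same-numbered WT and TTP-KO libraries did not deviate together at 2 h (correlations -0.0445, -0.0385 and -0.0624, and no library correlated best with its own number). The largest values were 0.117 for WT replicate 1 with TTP-KO replicate 3, 0.11 for WT 3 with TTP-KO 2 and 0.0954 for WT 2 with TTP-KO 1. With 3 libraries a group such values cannot settle whether libraries were paired or shared a batch. With a replicate block the counts were 122 higher, 277 lower, 8 and 43. Of 101 single-gene differences called at 2 h, 58 passed in each alternative evaluated and 43 were lost in at least 1, all 43 without some library. With only the 6 libraries compared 27 of the 101 were lost, with no filter 10, and with the replicate block 5. DESeq2 and RLE scaling lost 1 each. DESeq2 gave no adjusted p for 31 of the 393 genes, Il3, Ms4a1, Spib, Ndufb4, Ccl22, Pax5 and Blk among them. Values that turned in sign belonged to genes that did not pass and lay near 0: Akr1c13 was -0.00246 under RLE and -0.00247 with DESeq2, and from -0.0508 to 0.0310 on leaving out single libraries. Il4 was -0.000951 under RLE, -0.000982 with DESeq2 and from -0.0818 to 0.0807 on leaving out single libraries, and Mrc1 from -0.00930 to 0.103. The cause was not tested. With 3 libraries a group, small differences in genes of a few CPM are the least certain.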
